A study of Arabidopsis thaliana with 18 samples.

Results

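A named set of 10 alpha-expansins transcribed in leaves was followed in 35S:RPS4-HS plants (35S:RPS4 in what follows) and in their wild-type Col-0. Alpha-expansins are secreted proteins that loosen the plant cell wall at low pH without cutting its polymers. Growing cells acidify their walls with plasma membrane proton pumps, and expansins then let cellulose and xyloglucan slip so that turgor can enlarge the cell. The family is large, its members are transcribed in different organs and at different ages, and several respond to auxin, gibberellin or brassinosteroid. The 10 genes described here, of 32678 in the count table, were chosen by name: EXPA1 (AT1G69530), EXPA3 (AT2G37640), EXPA4 (AT2G39700), EXPA5 (AT3G29030), EXPA6 (AT2G28950), EXPA8 (AT2G40610), EXPA10 (AT1G26770), EXPA11 (AT1G20190), EXPA15 (AT2G03090) and EXPA16 (AT3G55500). They were selected because EXPA11 was among the genes that fell most in 35S:RPS4 at 8 h, so the 8 h values of 35S:RPS4 are given below as a description, with no test. All 10 passed the filter on low counts. The set does not hold every alpha-expansin found in these leaves. EXPA9 and EXPA13, outside it, had group means of 15.1 and 9.25 CPM in Col-0 at 8 h.

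Both lines are Col-0. The 35S:RPS4 line carries RPS4-HS under the constitutive 35S promoter and so over-expresses RPS4, a TIR-type intracellular immune receptor, in all leaf tissues. Plants grew at 28 °C for 3.5 weeks, which holds the receptor response back, and leaves were harvested unshifted (0 h) or once plants had spent 4 h or 8 h at 19 °C, which releases it without a pathogen. Each of the 6 groups (35S:RPS4 and Col-0 at 0 h, 4 h and 8 h) held 3 libraries, and no label ties them to separate plants, so the tests reflect library-to-library spread that may be technical. Libraries held 23876651 to 36291942 counts in genes, and a count of 3 in 1 library corresponded to 0.0827 to 0.126 CPM before scaling. All other CPM given here are reads of a gene per unit of library size, after scaling. The RPS4 transcript ranged over 665 to 2603 CPM in the 9 libraries labelled 35S:RPS4, against 12.2 to 20.1 CPM in the 9 labelled Col-0. The leaf origin was checked on marker genes: the mesophyll genes RBCS1A and RCA had group means of 1564 to 19063 CPM, whereas the root hair gene RHD6 had 0 counts in every library, BGLU23 of the root list had group means of 3.23 to 50.04 CPM, and the flower genes AP1, AG and AP3 stayed under 1 CPM in every group. Time after the shift, temperature and time of day cannot be told apart within a line.

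The members resemble each other in sequence to different degrees, which bears on how they are grouped below. By coding sequence read from TAIR10.1, EXPA4 and EXPA16 were the closest pair, with 81.1% identical aligned bases, and EXPA6 was next to EXPA4 with 78.2%. EXPA1 and EXPA10 shared 79.7% and EXPA15 was 76.2% identical to EXPA10. EXPA11 stood farthest from the others, with at most 66.6% identity to a member. The longest run of identical exon bases that a member shared with any other alpha-expansin was 33 bases, between EXPA10 and EXPA15, and no exon of a member overlapped an exon of another gene. Of the 10 genes 3 lie on chromosome 1, 5 on chromosome 2 and 2 on chromosome 3, and their coding sequences are 759 to 828 bases long. EXPA11, a gene of 3 exons, spans 6998335 to 6999839 on the minus strand of chromosome 1, and EXPA16, also of 3 exons, spans 20574752 to 20576249 on the minus strand of chromosome 3 (TAIR10.1).

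The sequences before the gene starts of 4 members are shown because these genes took the 3 courses described below: EXPA6 and EXPA11 were lower in 35S:RPS4 at 4 h, EXPA4 did not pass the test there, and EXPA16, its closest relative, stood highest at 8 h. Each runs 5′ to 3′ over the 250 bases before the annotated start in TAIR10.1, on the minus strand, with matches to the motifs searched in capitals. EXPA6 is taken from chr2:12433797-12434046, EXPA11 from chr1:6999840-7000089, EXPA4 from chr2:16545747-16545996 and EXPA16 from chr3:20576250-20576499.
EXPA6: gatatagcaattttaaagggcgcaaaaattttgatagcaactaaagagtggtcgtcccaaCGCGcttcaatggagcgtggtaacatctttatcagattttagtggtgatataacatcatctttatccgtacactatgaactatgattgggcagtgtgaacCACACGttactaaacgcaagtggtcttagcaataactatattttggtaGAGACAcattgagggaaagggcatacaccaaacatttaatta
EXPA11: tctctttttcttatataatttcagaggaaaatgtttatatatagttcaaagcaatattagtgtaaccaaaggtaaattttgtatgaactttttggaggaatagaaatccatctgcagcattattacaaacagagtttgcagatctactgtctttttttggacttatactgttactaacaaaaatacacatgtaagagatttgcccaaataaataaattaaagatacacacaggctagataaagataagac
EXPA4: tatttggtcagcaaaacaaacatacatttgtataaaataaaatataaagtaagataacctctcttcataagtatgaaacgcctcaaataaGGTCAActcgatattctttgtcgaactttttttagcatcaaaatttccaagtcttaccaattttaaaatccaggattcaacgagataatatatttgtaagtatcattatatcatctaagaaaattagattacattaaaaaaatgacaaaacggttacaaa
EXPA16: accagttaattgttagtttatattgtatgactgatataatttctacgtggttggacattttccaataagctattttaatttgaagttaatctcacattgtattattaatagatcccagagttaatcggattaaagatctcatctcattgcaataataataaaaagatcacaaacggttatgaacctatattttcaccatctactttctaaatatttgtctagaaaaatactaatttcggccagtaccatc

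The window searched ran from 250 bases before to 50 bases after each start, on both strands, in the 10 members and in 27443 protein-coding genes. TGTCTC, an auxin response element, was present in 4 members (EXPA5, EXPA6, EXPA8 and EXPA10) and in 14.2% of all promoters, and TGTCGG in 0 members and 5.12%. CGTGTG, bound by the brassinosteroid factor BZR1, was present in EXPA1 and EXPA6 and in 6.52% of promoters, and CGTGCG in 0 members and 1.96%. TTGACC, a W-box, was present in EXPA4, EXPA8 and EXPA10 and in 14.2% of promoters, and TTGACT in EXPA8 alone and in 21.8%. The core CGCG, the one form searched of sites for calmodulin-binding CAMTA factors was present in EXPA6 alone and in 13% of promoters, and the G-box CACGTG in 0 members and 7.68%. EXPA3, EXPA11, EXPA15 and EXPA16 held none of the motifs searched in this window. The form CGTG, which CAMTA factors can also bind, was not searched. No matches overlapped in the members. In EXPA6 the capitals mark, in order, the CAMTA core and, both read on the opposite strand, the BZR1 element and the auxin response element. In EXPA4 they mark a W-box read on the opposite strand.

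Before the shift the members differed widely in level and little between the lines. Levels compared between genes are CPM per kb of exon. In 35S:RPS4 at 0 h EXPA5 was highest, with 55.1 ± 9.1 CPM per kb (SD, n = 3), followed by EXPA1 with 38.6 ± 4.5, and the ranges of these neighbours did not overlap. EXPA10, EXPA6, EXPA4 and EXPA3 came next, each overlapping its neighbour, and EXPA11 had 14.5 ± 3.1 CPM per kb. EXPA15, EXPA16 and EXPA8 were the lowest and lay between 1.43 and 2.94 CPM per kb on average. In Col-0 at 0 h the 10 genes had the same order by mean, from EXPA5 down to EXPA8 with 1.85 ± 1.91 CPM per kb, and every neighbouring pair overlapped. Summed over the 10 genes, 35S:RPS4 held 317 ± 70 CPM and Col-0 held 323 ± 99 CPM at 0 h.

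The first comparison asked whether the line altered these genes before its receptor was released. None of the 10 was called lower, with 0% of the 20023 genes tested called lower, and none was called higher, with 0.00999% called higher, where a call asked for more than a 2-fold difference and an adjusted p below 0.01 in edgeR's quasi-likelihood test. At an unadjusted p under 0.05, 1198 of all genes were lower and 725 higher, and DESeq2 called 71 lower and 4 higher, no member among them. Member log2 fold changes ran from -0.49 (EXPA16) to 0.25 (EXPA11), and every range over 3 libraries overlapped. The 35S:RPS4 libraries at 0 h may have taken part in the choice of EXPA11, so its value here is a description. The 95% intervals were narrowest for EXPA3 (-0.54 to 0.18) and widest for EXPA8 (-1.80 to 1.03), so a change of 2-fold was outside the interval for EXPA3 and inside it for EXPA8. One library of Col-0, replicate 1, was the highest of its group for EXPA1, EXPA3, EXPA4, EXPA5, EXPA6, EXPA8, EXPA11, EXPA15 and EXPA16, and 35S:RPS4 replicate 3 was the highest of its group for 8 of the 10 genes.

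**Figure D1:**
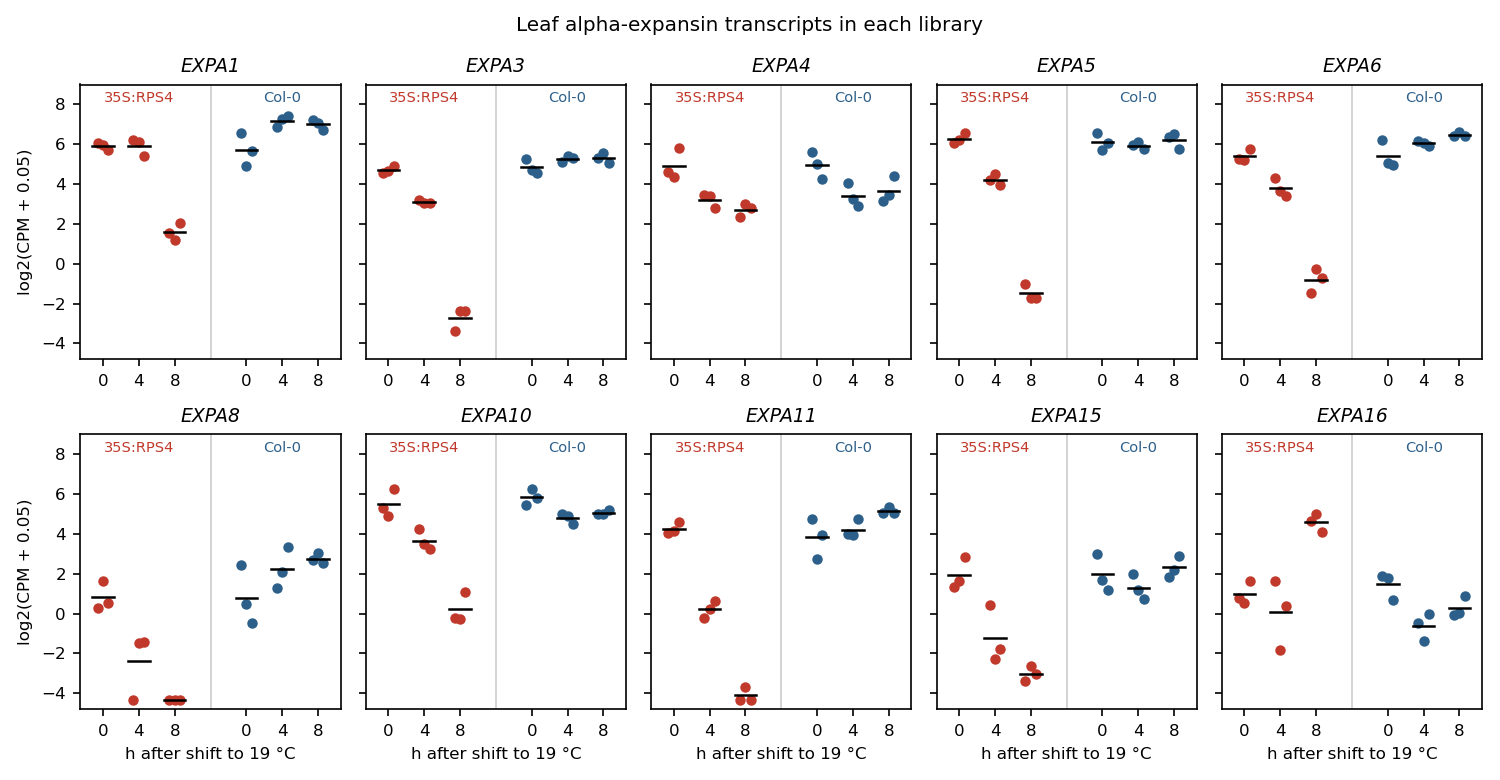
Transcript level of each alpha-expansin in the 18 libraries, as log2(CPM + 0.05), against hours after the shift, with 35S:RPS4 on the left and Col-0 on the right of each panel. Points are libraries and bars are means over 3 libraries. EXPA11 and EXPA8 lie at the lower edge in 35S:RPS4 at 8 h, EXPA4 takes a like course in both lines, and EXPA16 is high in 35S:RPS4 at 8 h.

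At 4 h after the shift 6 of the 10 genes were called lower in 35S:RPS4 than in Col-0, against 12.4% of all genes tested, and none was called higher, against 16.6% of all genes. The 6 were EXPA1, EXPA3, EXPA5, EXPA6, EXPA8 and EXPA11. The median log2 fold change over the 10 members was -1.95, against -0.01 over all genes tested. In leaf RNA of this kind fewer cells of a type and less RNA per cell cannot be told apart. In total, the 10 genes summed to 129 ± 31 CPM in 35S:RPS4, against 379 ± 23 CPM in Col-0 at 4 h, and the ranges did not overlap.

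EXPA11 stood at 0.80, 1.13 and 1.49 CPM in 35S:RPS4 at 4 h, against 15.6, 15.3 and 26.4 CPM in Col-0 at 4 h. Every 35S:RPS4 library lay far below every Col-0 library, and the difference was 16.5-fold (log2 fold change -4.04 ± 0.43 SE, adjusted p = 6.66e-07). The call held under each of the alternatives run.

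EXPA8, a gene of low level in both lines, had 0, 0.313 and 0.323 CPM in 35S:RPS4 at 4 h, against 2.35, 4.24 and 10.1 CPM in Col-0. These are 16 and 509 counts over the 3 libraries of each group. The groups did not overlap, and the log2 fold change of -4.62 ± 0.90 (SE) passed the test (adjusted p = 0.000546).

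EXPA3, EXPA5 and EXPA6, which are of middle or high level, were lower by a similar amount. EXPA3 had 9.0, 8.25 and 8.12 CPM in 35S:RPS4, against 34.2, 42.8 and 39.5 CPM in Col-0, and the libraries of each line lay close together (log2 fold change -2.20 ± 0.20, adjusted p = 6.89e-08). EXPA5, a member that brassinosteroid is known to raise, had 18.5, 22.8 and 15.4 CPM in 35S:RPS4, against 61.7, 68.0 and 53.5 CPM in Col-0 (log2 fold change -1.69 ± 0.23, adjusted p = 1.1e-05). EXPA6 had 19.7, 12.4 and 10.6 CPM in 35S:RPS4, against 70.6, 66.7 and 61.0 CPM in Col-0 (log2 fold change -2.22 ± 0.31, adjusted p = 1.23e-05). In all 3 genes the highest 35S:RPS4 library stood below the lowest Col-0 library.

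EXPA1, known for a part in stomatal opening, differed least of the 6. It had 74.6, 68.6 and 42.0 CPM in 35S:RPS4 at 4 h, against 115, 154 and 169 CPM in Col-0. The groups did not overlap and the fold was 2.37 (log2 fold change -1.24 ± 0.32, adjusted p = 0.00378). It was no longer called on leaving out replicate 3 of 35S:RPS4 at 4 h (adjusted p = 0.025), or replicate 2 or 3 of Col-0 at 4 h (adjusted p = 0.0122 and 0.0165).

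The other 4 members did not pass. EXPA10, which is known to affect leaf size, had 19.1, 11 and 9.37 CPM in 35S:RPS4, against 31.8, 30.3 and 22.4 CPM in Col-0 (log2 fold change -1.10 ± 0.36, adjusted p = 0.017). EXPA15 had 1.3, 0.156 and 0.242 CPM in 35S:RPS4, against 3.84, 2.20 and 1.59 CPM in Col-0 (log2 fold change -2.22 ± 0.69, adjusted p = 0.0127). For both genes all 35S:RPS4 libraries lay below all Col-0 libraries. Both were called by DESeq2 (adjusted p = 0.00584 for EXPA10 and 0.00241 for EXPA15) and without 35S:RPS4 4 h replicate 1 (adjusted p = 0.00575 for EXPA10 and 0.00095 for EXPA15). EXPA10 was also called by limma voom (adjusted p = 0.00838) and by edgeR on the compared groups alone (adjusted p = 0.00933). EXPA4 had 10.7, 10.5 and 6.78 CPM in 35S:RPS4, against 16.7, 9.31 and 7.39 CPM in Col-0, overlapping ranges with a 95% interval from -1.11 to 0.61 on the log2 scale. EXPA16 had 3.05, 0.235 and 1.25 CPM in 35S:RPS4, against 0.658, 0.329 and 0.939 CPM in Col-0, and its ranges overlapped too (adjusted p = 0.137).

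**Figure D2:**
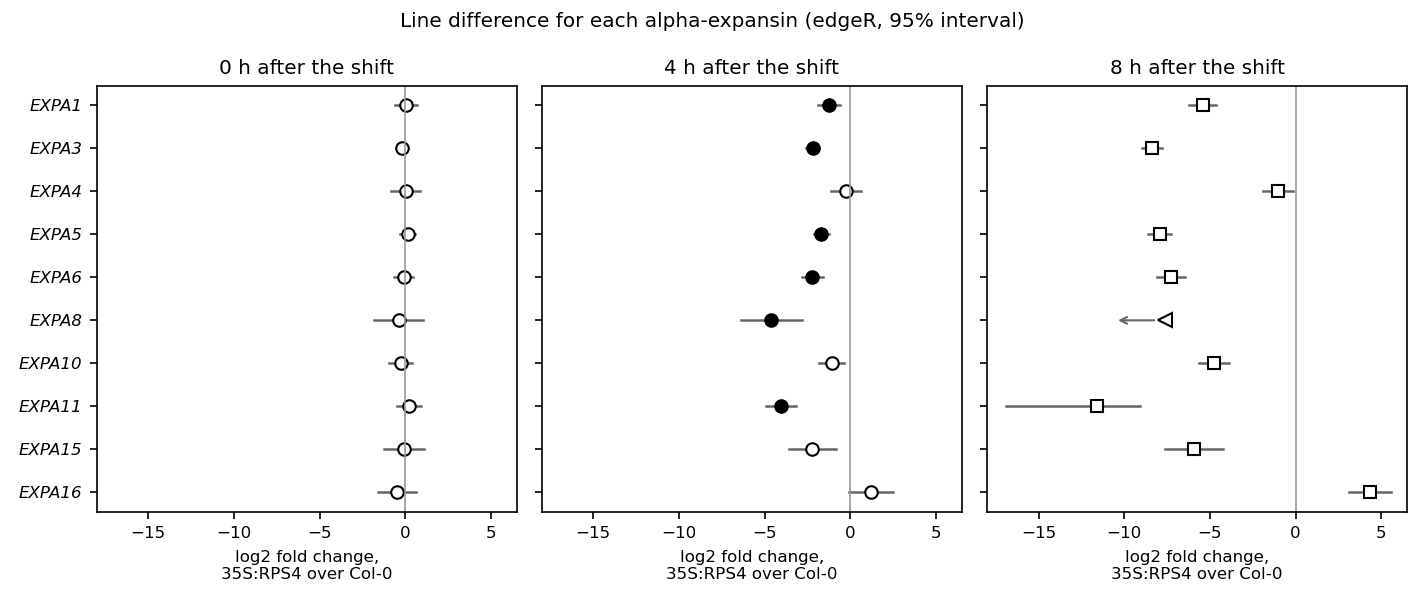
Log2 fold change of 35S:RPS4 over Col-0 for each alpha-expansin at 0 h, 4 h and 8 h, with 95% intervals from edgeR's fit (n = 3 libraries per group). Filled circles passed the test, open circles did not, and open squares at 8 h were not tested. At 8 h EXPA8 is a bound from 0 counts (triangle and arrow) and EXPA11 a ratio over 1 count with its counting interval.

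Few members were called in Col-0 after the shift. With 10 members, counts this small cannot be told apart from the shares of all genes given beside them. At 4 h against 0 h none of the 10 was called lower in Col-0, with 4.79% of all genes called lower, and EXPA1 was the 1 member called higher, with 3.87% of all genes called higher. DESeq2 called EXPA4 and EXPA16 lower, and at an unadjusted p under 0.05 edgeR had 4023 of all genes lower and 3839 higher. EXPA1 had 115, 154 and 169 CPM in Col-0 at 4 h, against 94.4, 30.3 and 49.8 CPM at 0 h, a log2 fold change of 1.33 ± 0.32 (adjusted p = 0.00573). Ranges did not overlap, but the 0 h libraries were widely spread and EXPA1 was no longer called on leaving out replicate 2 or 3 of Col-0 at 0 h or replicate 2 or 3 of Col-0 at 4 h (adjusted p from 0.0203 to 0.0277).

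At 8 h against 0 h in Col-0 the counts concern the 9 members other than EXPA11. No p is given for EXPA11 because the Col-0 8 h libraries may have taken part in its choice. None of the 9 was called lower (11.8% of all genes were), and EXPA1 was again the 1 member called higher (10.5% of all genes were), with 148, 134 and 107 CPM at 8 h and a log2 fold change of 1.16 ± 0.32 (adjusted p = 0.00676). It was not called on leaving out replicate 2 or 3 of Col-0 at 0 h or replicate 1 or 2 of Col-0 at 8 h (adjusted p from 0.0193 to 0.0311). DESeq2 called 1 member lower, EXPA4, and edgeR had 5706 of all genes lower at an unadjusted p under 0.05. EXPA6 had 86.0, 99.1 and 84.7 CPM at 8 h, against 73.6, 33.1 and 30.6 CPM at 0 h, and missed both limits narrowly (log2 fold change 0.97 ± 0.29, adjusted p = 0.0113). Without Col-0 0 h replicate 1 its log2 fold change was 1.5 (adjusted p = 0.000123). EXPA11 had 32.7, 40.5 and 33.2 CPM at 8 h, against 27.0, 6.65 and 15.6 CPM at 0 h, and all 8 h libraries were above all 0 h libraries.

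EXPA4, EXPA10 and EXPA16 had lower means in Col-0 after the shift than before it. EXPA4 had 16.7, 9.31 and 7.39 CPM at 4 h, against 48.1, 32.0 and 19.1 CPM at 0 h (log2 fold change -1.57 ± 0.44, adjusted p = 0.0133). EXPA10 had 31.8, 30.3 and 22.4 CPM at 4 h, against 43.5, 76.4 and 55.9 CPM at 0 h (log2 fold change -1.06 ± 0.35, adjusted p = 0.0342). EXPA16 had 0.658, 0.329 and 0.939 CPM at 4 h, against 3.65, 3.42 and 1.58 CPM at 0 h (log2 fold change -2.16 ± 0.62, adjusted p = 0.0164). The 4 h libraries of all 3 genes lay below the 0 h libraries, and none passed the adjusted threshold.

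In 35S:RPS4 itself 8 of the 10 members were called lower at 4 h than at 0 h, all but EXPA1 and EXPA16, against 14.8% of all genes, and none was called higher, against 18.3%. EXPA11 stood at 0.80 to 1.49 CPM at 4 h, against 16.5, 17.7 and 24.2 CPM at 0 h, with no overlap (16.8-fold, log2 fold change -4.07 ± 0.44). It is 1 of the 8, but its 0 h libraries may have taken part in its choice, so its value is a description and no p is given. Only the others of the 8 are to be set against the share of all genes. EXPA5 stood at 15.4 to 22.8 CPM at 4 h, against 67.7, 75.4 and 93.0 CPM at 0 h (log2 fold change -2.06 ± 0.24, adjusted p = 1.13e-06). EXPA10 stood at 9.37 to 19.1 CPM at 4 h, against 39.0, 29.5 and 77.0 CPM at 0 h (log2 fold change -1.89 ± 0.37, adjusted p = 0.000302). All 8 genes had ranges below those of 0 h. EXPA3 (-1.62), EXPA4 (-1.85), EXPA6 (-1.60), EXPA15 (-2.95) and EXPA8 (-3.05) were the others, by log2 fold change. EXPA8 (adjusted p = 0.00981) was not called on leaving out any 1 of the 6 libraries compared (adjusted p from 0.0109 to 0.0419). Without 35S:RPS4 0 h replicate 3, or without 35S:RPS4 4 h replicate 3, 5 of the 10 members were called, EXPA4 and EXPA15 being lost beside EXPA8.

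EXPA1 and EXPA16 did not pass the test in 35S:RPS4 at 4 h against 0 h. EXPA1 had 74.6, 68.6 and 42.0 CPM at 4 h, against 65.8, 61.3 and 52.1 CPM at 0 h, a log2 difference of 0.05 with a 95% interval from -0.58 to 0.67. EXPA16 had 3.05, 0.235 and 1.25 CPM at 4 h, against 1.65, 1.40 and 3.09 CPM at 0 h, with an interval from -1.65 to 0.70. EXPA1 took 47.1% ± 3.3 of the summed CPM per kb of the 10 genes in 35S:RPS4 at 4 h, against 19.3% ± 5.6 at 0 h (SD, n = 3).

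Whether the shift acted differently in the lines was tested as an interaction, the change from 0 h to 4 h in 35S:RPS4 less that in Col-0. It was called below 0 for 5 members, EXPA3, EXPA5, EXPA6, EXPA8 and EXPA11, against 10.2% of all genes, and called above 0 for none, against 15% of all genes. EXPA11 had -4.29 ± 0.56 on the log2 scale (SE), given as a description because its 0 h libraries may have taken part in its choice. Only the others of the 5 are to be set against the share of all genes. EXPA3 had -2.02 ± 0.27 (adjusted p = 1.21e-05). EXPA5 with -1.84 ± 0.32 and EXPA6 with -2.13 ± 0.42 passed as well, with adjusted p = 0.000209 and 0.000617. EXPA8 with -4.23 ± 1.15 passed (adjusted p = 0.00853), but not on leaving out replicate 2 or 3 of 35S:RPS4 at 0 h, any 1 of the 3 libraries of 35S:RPS4 at 4 h, or replicate 2 or 3 of Col-0 at 0 h or at 4 h (adjusted p from 0.0111 to 0.026). EXPA1 (-1.28, adjusted p = 0.0308), EXPA15 (-2.14, adjusted p = 0.0707) and EXPA10 (-0.83, adjusted p = 0.202) did not pass. EXPA4, which was lower after the shift in both lines, had an interaction of -0.28 with a 95% interval from -1.47 to 0.92, and EXPA16 had 1.69 with an interval from -0.003 to 3.38.

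By 8 h most of these transcripts had levels in 35S:RPS4 far below those in Col-0. Such values chose the members and are described only, and nothing is read from the counts against the shares of all genes given beside them. Against Col-0 at 8 h, 8 of 10 were past the limits as lower (30.1% of all genes were) and 1 as higher (26.6% of all genes were). Against 35S:RPS4 at 0 h, 9 were lower (29.7% of all genes) and 1 was higher (26.5%). The median log2 fold change over the 10 was -6.60 against Col-0 and -5.92 against 0 h, or -5.67 with EXPA8 at its bound. The 10 genes summed to 36.7 ± 6.9 CPM in 35S:RPS4 at 8 h, against 430 ± 43 CPM in Col-0 at 8 h.

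EXPA11 had 0, 1 and 0 counts in the 3 libraries of 35S:RPS4 at 8 h, against 3263 counts in Col-0, where it stood at 32.7, 40.5 and 33.2 CPM. The ratio over that 1 count was 3049-fold lower, with a 95% binomial interval from 547-fold to 120500-fold that covers counting error only. Its fitted change, which depends on a prior count, ranked 6th from the lowest of 20023 genes between the lines and 13th against 0 h. EXPA8 had 0 counts in all 3 libraries, against 6.34, 8.32 and 5.69 CPM in Col-0 at 8 h, and was at least 194-fold lower, taking a floor of 3 counts over the group. These 2 members also had the largest log2 differences between the lines at 4 h.

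EXPA3, EXPA5 and EXPA6, of higher level, were between 154-fold and 331-fold lower. EXPA3 had 0.0448, 0.141 and 0.142 CPM in 35S:RPS4 at 8 h, against 39.3, 46.4 and 33.4 CPM in Col-0, 331-fold lower. EXPA5 had 0.448, 0.254 and 0.248 CPM in 35S:RPS4, against 80.9, 91.5 and 53.3 CPM in Col-0, 243-fold lower. EXPA6 had 0.314, 0.789 and 0.567 CPM in 35S:RPS4, against 86.0, 99.1 and 84.7 CPM in Col-0, 154-fold lower. Per kb of exon these 3 were among the 5 highest members in Col-0 at 8 h, and held the fifth to the seventh place in 35S:RPS4.

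EXPA1, EXPA10 and EXPA15, which are close in sequence, had smaller differences than EXPA3, EXPA5 and EXPA6. EXPA8, with 75.7% coding identity to EXPA1, did not share this and was at least 194-fold lower. EXPA1 had 2.87, 2.23 and 4.01 CPM in 35S:RPS4 at 8 h, against 148, 134 and 107 CPM in Col-0, 42.8-fold lower. EXPA10 had 0.806, 0.789 and 2.09 CPM in 35S:RPS4, against 31.7, 32.1 and 36.4 CPM in Col-0, 27.1-fold lower. EXPA15 had 7 counts in all, or 0.0448, 0.113 and 0.0709 CPM in 35S:RPS4, against 3.56, 4.57 and 7.45 CPM in Col-0, 61.3-fold lower. EXPA1 was thus near its 0 h level in 35S:RPS4 at 4 h and 19.8-fold below it at 8 h.

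The closest pair in sequence, EXPA4 and EXPA16, departed from the rest in different ways. EXPA4 had 5.11, 7.83 and 6.88 CPM in 35S:RPS4 at 8 h, against 8.74, 10.8 and 21.2 CPM in Col-0, which is 2.04-fold lower with ranges that did not overlap, and the smallest difference of the 10. EXPA16 had 24.9, 32.3 and 17.2 CPM in 35S:RPS4 at 8 h, against 0.906, 0.953 and 1.82 CPM in Col-0, a 20.2-fold higher level, and 1.65, 1.40 and 3.09 CPM in 35S:RPS4 at 0 h. All 3 libraries of 35S:RPS4 at 8 h stood above the other 15 libraries for this gene. It was the lowest of the 10 genes per kb in Col-0 at 4 h and 8 h and the highest in 35S:RPS4 at 8 h, with 19.8 ± 6.0 CPM per kb, ahead of EXPA4 with 4.40 ± 0.92 and EXPA1 with 1.96 ± 0.58. Ranges of these 3 neighbours did not overlap.

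**Figure D3:**
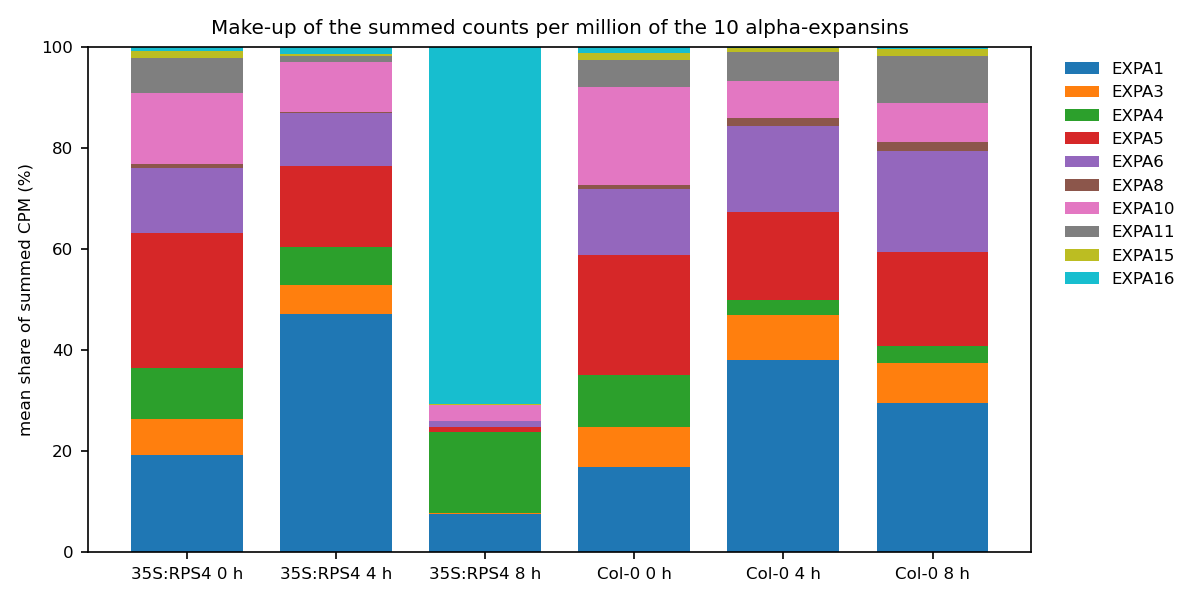
Mean share of each gene in the summed CPM per kb of exon of the 10 alpha-expansins (vertical axis, percent) in the 6 groups, each over 3 libraries, with 35S:RPS4 left of Col-0. The axis and title name CPM, but the shares drawn are of CPM per kb. EXPA16 holds 70.7% in 35S:RPS4 at 8 h, against 0.36% in Col-0 at 8 h.

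The make-up of the summed transcripts differed as well as their total. Shares are of the summed CPM per kb of exon. EXPA16 took 70.7% ± 9.3 in 35S:RPS4 at 8 h, against 0.36% ± 0.19 in Col-0 at 8 h, and EXPA4 took 16.1% ± 3.6, against 3.33% ± 1.99 (SD, n = 3). EXPA1, EXPA5, EXPA6 and EXPA11 took 29.7%, 18.5%, 20.1% and 9.39% in Col-0 at 8 h, and in 35S:RPS4 their shares were 7.54%, 0.83%, 1.26% and 0.02%. In Col-0 the largest share after the shift belonged to EXPA1, with 38.1% ± 5.2 at 4 h, against 17.0% ± 5.1 at 0 h.

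Across the 18 libraries the members fell into a main set and 2 exceptions. This is a description with no test, since all members share the same libraries. These include the 8 h libraries that took part in the choice of EXPA11, so the r values partly restate the 8 h differences. Between the lines at 8 h, 30.1% of all genes were past the limits as lower, and no r among all genes is given for comparison. Pearson's r of log2 CPM was highest between EXPA3 and EXPA6 (0.991) and between EXPA3 and EXPA5 (0.987). EXPA11 followed EXPA6 with r = 0.966 and EXPA3 with r = 0.956. EXPA4 was mostly more loosely tied to the others, with r from 0.34 (EXPA1) to 0.74 (EXPA15) apart from EXPA16. Within the main set r went down to 0.738 (EXPA8 with EXPA10), so these ranges met. EXPA16 ran against all 9, from r = -0.88 with EXPA1 to r = -0.13 with EXPA4.

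**Figure D4:**
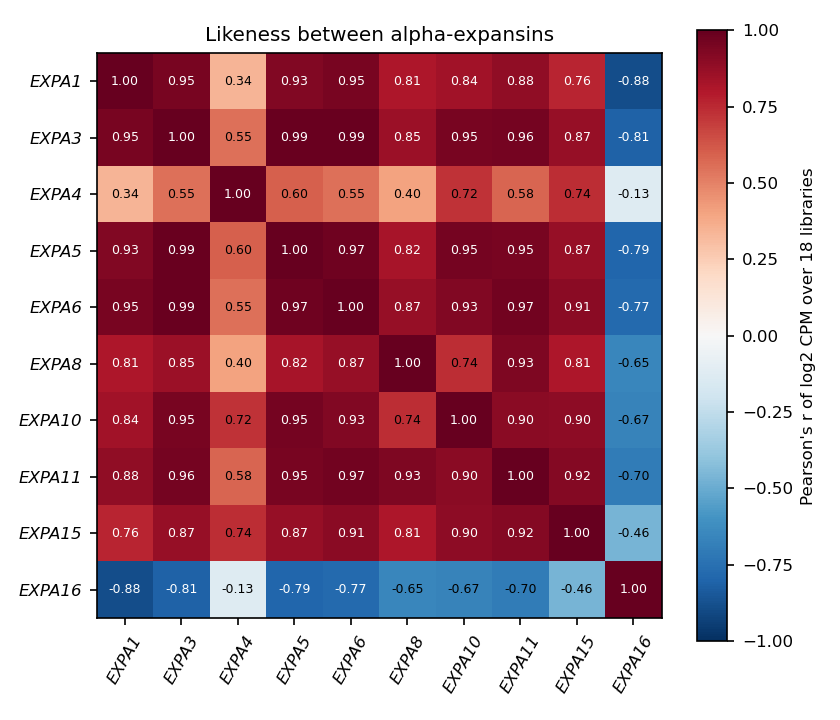
Pearson's r of log2 CPM between each pair of the 10 alpha-expansins over the 18 libraries, with red for positive and blue for negative values. EXPA3, EXPA5, EXPA6 and EXPA11 form a block between 0.95 and 0.99, and the EXPA16 row is negative throughout. The 8 h libraries that took part in the choice of EXPA11 are included.

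Among 7285 genes with a symbol that reached 5 CPM in a group mean, those most like EXPA11 over the 18 libraries were DRT100 (r = 0.990), NRPD2B (0.988), NIK3 (0.985), NUDT11 (0.984) and BEE2 (0.982). The nearest gene was FLA13 for EXPA3 (0.995), ECHID for EXPA5 (0.996), THY-1 for EXPA6 (0.993), EMB175 for EXPA1 (0.982), DWF1 for EXPA10 (0.982), BAM3 for EXPA15 (0.976) and ATAUX2-11 for EXPA8 (0.951). For EXPA4 and EXPA16 the nearest, MLP28 (0.930) and IQD8 (0.933), were less close. BEE2 is a bHLH factor of the brassinosteroid response and DWF1 an enzyme of sterol and brassinosteroid synthesis. No theme among the genes named was tested. Likeness to EXPA11 also rests in part on the 8 h libraries that took part in its choice.

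Other expansins and wall genes were set beside the members at 4 h. Between the lines at that time 12.4% of all genes were called lower and 16.6% higher. No list was tested against these shares. Of 14 other alpha-expansins 4 passed the filter, and EXPA13 was called lower, with 3.70 ± 1.12 CPM in 35S:RPS4, against 8.11 ± 1.83 CPM in Col-0 (log2 fold change -1.14). EXPA9, the close relative of EXPA3, had 12.5 ± 1.8 CPM in 35S:RPS4, against 10.2 ± 4.7 CPM in Col-0 (log2 fold change 0.30 ± 0.44, adjusted p = 0.586). In 35S:RPS4 EXPA9 rose against 0 h by 1.74 ± 0.46 on the log2 scale (adjusted p = 0.00367). Its mean was higher at 4 h in Col-0 too, against 4.22 ± 2.68 CPM at 0 h, but was not called. Both beta-expansins that were tested, of 5, were lower: EXPB3 had 1.29 ± 0.52 CPM in 35S:RPS4, against 12.0 ± 3.1 CPM in Col-0, and EXPB1 had a log2 fold change of -2.41. Of 4 expansin-like genes 3 were tested and 2 were called lower, EXLA2 (log2 fold change -3.93) and EXLA1 (-1.95).

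The xyloglucan endotransglucosylase/hydrolases (XTHs), which cut and rejoin the polymer that expansins loosen, went both ways. Of 20 tested, 9 were called lower (12.4% of all genes were) and 5 called higher (16.6% of all genes were) in 35S:RPS4 at 4 h. Their median log2 fold change was -1.12, against -0.01 over all genes. XTH18 had 279 ± 56 CPM in 35S:RPS4, against 3.35 ± 1.05 CPM in Col-0, XTH22, a touch-induced gene, had 417 ± 110 CPM in 35S:RPS4, against 14.0 ± 3.8 CPM in Col-0, and XTH23 had 31.1 ± 8.0 CPM in 35S:RPS4, against 0.443 ± 0.024 CPM in Col-0. XTH31 was among the lower ones, with 63.4 ± 37.8 CPM in 35S:RPS4, against 469 ± 56 CPM in Col-0. None of the 5 cellulose synthase subunits of the primary wall passed both limits, with log2 fold changes from -0.85 (CESA1) to 0.58 (CESA2), and the subunits highest by mean CPM over all libraries were CESA3 (-0.83) and CESA5 (-0.32).

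Genes upstream of wall loosening were counted in the same way, beside 12.4% of all genes called lower and 16.6% called higher. These lists were not tested against those shares. Of 12 growth regulators 7 were called lower and none higher (median log2 fold change -1.25), among them GA20OX1 of gibberellin synthesis (-5.85 ± 0.63), the growth-promoting bHLH factor HBI1 (-4.19 ± 0.43) and PRE1 (-3.51 ± 0.46). Of 9 genes of auxin perception and wall acidification 3 were called lower and 2 called higher. The auxin receptor gene TIR1 (-1.99 ± 0.27) and the receptor kinase gene TMK1 (-1.69 ± 0.23), whose product activates proton pumps, were lower, as was the auxin response factor gene ARF8 (-1.82 ± 0.29), while ARF7 of the same family (1.69 ± 0.21) was higher. AFB2, an auxin receptor gene of the TIR1 family, was also higher (1.08 ± 0.14), with 58.5 ± 8.4 CPM in 35S:RPS4, against 27.7 ± 4.1 CPM in Col-0. The proton pump genes AHA1 (-0.32, adjusted p = 0.179) and AHA2 (-0.25, adjusted p = 0.314) did not pass.

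Markers of leaf cell types were examined at the same time point, when 12.4% of all genes were called lower and 16.6% higher. The marker lists are short and were not tested against those shares. Of 5 epidermis markers 4 were tested and 3 were called lower in 35S:RPS4 at 4 h, ML1 (-1.70), PDF2 (-1.67) and FDH (-1.53), while LTP1 was lower by less than 2-fold (-0.86) and PDF1 was near 0 in every group. Their summed level was 415 to 535 CPM in 35S:RPS4, against 845 to 1090 CPM in Col-0 at 4 h, and 88.5 to 106 CPM in 35S:RPS4, against 768 to 1000 CPM in Col-0 at 8 h. Their part in the expansin result was not tested. None of 6 mesophyll markers (RCA -0.23, LHCB1.3 -0.14), 5 guard cell markers (TGG1 -0.12, FMA 0.29) or 6 vasculature markers (AHA3 0.17, SUC2 0.16) was called at 4 h. Of 5 dividing cell markers 1, KN, was called lower (-1.13). The root marker BGLU23 and the flower marker AG, the 1 gene tested of each list, were not called. Mesophyll markers summed to 27022 to 30771 CPM in 35S:RPS4, against 31241 to 33520 CPM in Col-0 at 4 h, and to 7755 to 8791 CPM in 35S:RPS4, against 24457 to 34941 CPM in Col-0 at 8 h.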

How the data were processed

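Leaf poly(A) RNA was depleted of ribosomal RNA from 2.5 µg of total RNA and sequenced in pairs after oligo-dT priming, per the labels. The authors checked reads with FastQC 0.11.2, aligned them to TAIR10 with TopHat2 2.0.10, and deposited raw read counts per gene made with HTSeq. Its version and strand setting are not given in the sources used here, so antisense reads may not be told apart. The 5 summary lines, among them reads in no gene (48.5% to 49.2%), stayed out of library sizes and tests.

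Counts were filtered by filterByExpr (20023 genes kept, 12655 removed), scaled by TMM (factors 0.797 to 1.15) and fitted over all 18 libraries with edgeR 4.0.16 (R 4.3.3), quasi-likelihood test, Benjamini-Hochberg adjustment over all genes. Calls needed an adjusted p under 0.01 and an absolute log2 fold change above 1, limits taken from the study. CPM use TMM-scaled library sizes. CPM per kb divide by merged exon length in TAIR10.1, which held 31912 of 32678 genes. SEs are the fold change over the root of F. Floors (3 counts) and binomial intervals cover counting error only. No 2 libraries were copies.

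The 10 members and the lists were chosen with earlier results of these data known. All members were named, and of each other list up to 3 genes called between the lines at 4 h with the largest change, or else the 2 with the highest mean CPM. EXPA9, CESA1, CESA2, AHA1, AHA2, TMK1, AFB2, BGLU23, XTH31, LTP1, PDF1, RBCS1A, RHD6, AP1 and AP3 were added after their values were seen. Alternatives were median-of-ratios scaling, library total alone, no filter, 1 CPM in 3 libraries, DESeq2 1.42.0, limma 3.58.1 (voom), the compared groups alone, a replicate block and leaving out each library. Each tool was tested on simulated data. Genome sequence was read from TAIR10.1, promoters and coding sequences with Biopython 1.88, figures drawn with matplotlib 3.10.9.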

Additional observations from a re-analysis of the deposited data

Results flagged for a closer look

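The change from 0 h to 4 h differed between 35S:RPS4 and Col-0, by the test of the interaction itself in edgeR, for EXPA3, EXPA5, EXPA6 and EXPA8. The difference, 35S:RPS4 less Col-0 on the log2 scale, was -4.291 for EXPA11, -4.235 for EXPA8, -2.126 for EXPA6, -2.022 for EXPA3 and -1.835 for EXPA5. The value of EXPA11 is a description, since the 0 h libraries it uses may have taken part in the choice of that gene. The value of EXPA8 rests on 16 counts in 35S:RPS4 at 4 h.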

How the results depend on the processing

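No called member changed sign under any alternative, and the counts of members called for each line comparison and for both interactions stayed within 1.5 times their values. In Col-0 at 4 h the members called lower, 0, were 2 under DESeq2 and 0 to 1 with single libraries left out. Those called higher, 1, were 0 with the compared groups alone and 0 to 2 with single libraries left out. In Col-0 at 8 h the members called lower, 0, were 1 under DESeq2 and 0 to 1 with single libraries left out. Those called higher, 1, were 2 with the library total alone, no filter or limma voom, 0 with the compared groups alone, and 0 to 3 with single libraries left out. In 35S:RPS4 at 4 h against 0 h the 8 called lower were 5 to 7 with single libraries left out.

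Library totals alone moved the median of all genes between the lines at 4 h to -0.43, and the split of all genes called was then 4237 lower and 2659 higher, against 2490 and 3315 with TMM. EXPA10 and EXPA15 were then called too.

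Whether the replicate numbers pair the libraries was not settled: of 45 pairs with the same number 9 correlated above 0.1 (range -0.22 to 0.27). Between the lines, libraries of the same number had r of 0.207, 0.009 and 0.212 at 4 h and of -0.120, -0.004 and -0.127 at 0 h. With a replicate block the members called higher in Col-0 at 8 h were 2, and EXPA8 was not called at 4 h against 0 h in 35S:RPS4 (adjusted p = 0.0176) or in the interaction (adjusted p = 0.0185). The causes were not tested. Depth limits EXPA8, EXPA15 and EXPA16, which held at most 387 counts over 3 libraries in either line at 0 h.

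Members that were not called changed sign 39 times, 21 of these in the line comparison at 0 h. There, on the log2 scale, EXPA1 was -0.014 and EXPA4 -0.084 with library totals alone, EXPA4 was -0.029 and EXPA6 0.01 in limma voom, EXPA4 was -0.007 with the compared groups alone, and EXPA4 was -0.002 and EXPA15 0.06 with a replicate block. With single libraries left out the 0 h difference ran from -0.271 to 0.579 for EXPA1, -0.315 to 0.077 for EXPA3, -0.569 to 0.398 for EXPA4, -0.034 to 0.395 for EXPA5, -0.309 to 0.435 for EXPA6, -0.926 to 0.905 for EXPA8, -0.129 to 0.815 for EXPA11 and -0.693 to 0.642 for EXPA15. EXPA4 ran from -0.478 to 0.16 between the lines at 4 h and from -0.651 to 0.316 in the interaction. In Col-0 EXPA5 ran from -0.4 to 0.029 and EXPA11 from -0.158 to 0.786 at 4 h, and EXPA5 from -0.099 to 0.33 and EXPA15 from -0.137 to 0.944 at 8 h. In 35S:RPS4 at 4 h against 0 h EXPA1 ran from -0.112 to 0.26 and EXPA16 from -1.466 to 0.052, and EXPA1 was -0.004 with median-of-ratios scaling and with DESeq2, -0.214 with library totals alone and -0.008 with the compared groups alone.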
